A study of Rattus norvegicus with 28 samples.

Results

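The genes described here are the myeloid lectin, Fc and paired inhibitory receptors of the rat, chosen by symbol alone: every gene whose name begins as a C-type lectin (Clec followed by a number and a letter), leukocyte immunoglobulin-like receptor (Lilr), sialic acid-binding lectin (Siglec), killer cell lectin-like receptor (Klr), Cd300 receptor, Fc gamma or Fc epsilon receptor (Fcgr, Fcer1), signal-regulatory protein (Sirp), Trem1 or Trem-like receptor (Treml). The rule found 92 of the 28459 gene symbols in the deposited tables. Of these, 24 were listed as inhibitory receptors, 31 as activating receptors or their signalling chain, 20 as serving adhesion, uptake or another function, and 17 were left unclassified. The rule takes in a few genes that are not cell-surface receptors, such as Clec16a, an endosomal protein, and the secreted proteins Clec3b and Clec11a. It used no measured value.

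Most of these receptors sit on myeloid cells in pairs of opposite sign. Inhibitory members typically carry a tyrosine motif in their own tail that recruits phosphatases such as SHP-1 (Ptpn6). Many activating members, but not all, lack a long tail and signal through adaptors such as Fcer1g or Tyrobp and the kinase Syk. In the brain they are found mainly on microglia and other macrophages, where they bind antibody, sialic acid, the CD47 protein, MHC class I or microbial sugars.

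Primary cortical glia of Wistar rats, taken at postnatal day 1, were exposed to ENV, the HERV-W retroviral envelope protein (1 µg/ml), or to bacterial lipopolysaccharide (LPS, 100 ng/ml), a ligand of TLR4. The 8 groups were microglia with ENV, with its vehicle buffer, with LPS and with its vehicle H2O, 3 libraries each, and astrocyte cultures with ENV, buffer, LPS and H2O, 4 libraries each. All cells grew in serum-containing medium, microglia were shaken off mixed flasks and selected for CD11b/c on magnetic beads, and how long the cells were stimulated is not known here. Messenger RNA was sequenced, and library totals were 26513999 to 42724111 counts in microglia and 23742228 to 35326938 in astrocytes. Values are CPM, counts scaled to a common library total, and a count of 0 allows up to 3 counts, which is 0.0702 to 0.126 CPM in these libraries. CPM are not scaled to transcript length, so levels are compared between samples and not between genes. Log2 changes were fitted on TMM-scaled library sizes, which raised the median gene's change in microglia by 0.20 with ENV and 0.31 with LPS over that on library totals (0.01 and 0.02 in astrocyte cultures), so a small change can differ in sign from the CPM means.

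Both culture types carried the markers of their label. The 13 microglia and macrophage markers, among them Aif1 and Csf1r, summed to 19721 to 21722 CPM with ENV and 11240 to 14682 CPM with buffer in microglia, and all 13 were above the limit of 3 counts in every microglial library. The lymphocyte and natural killer cell markers Nkg7, Cd3e and Gzma were at 0 counts in all 12 microglial libraries, whereas Lck, a kinase gene on the same list, was 8.99 to 11.6 CPM with ENV and 3.88 to 4.73 CPM with buffer (log2 change 1.46, adjusted p = 0.00138). In astrocyte cultures 9 astrocyte markers summed to 4416 to 8075 CPM with ENV and 8453 to 11315 CPM with buffer: Gfap was 1392 to 2610 CPM with ENV and 5130 to 6432 CPM with buffer, whereas Aqp4 was 1333 to 3443 CPM with ENV and 951 to 1100 CPM with buffer. The 13 microglial markers still summed to 212 to 1131 CPM with ENV and 229 to 973 CPM with buffer there, but single markers moved in opposite directions. Adgre1 was 60.6 to 668 CPM with ENV and 12.3 to 97.7 CPM with buffer, and Cx3cr1 was 1.42 to 12.2 CPM with ENV and 8.14 to 84.3 CPM with buffer (log2 changes 2.67 and -3.10, adjusted p = 0.0448 and 0.0308). In LPS-treated and H2O-treated microglia, replicate 3 differed from replicates 1 and 2 for several of the genes described here. Oligodendrocyte-lineage markers summed to 5.04, 5.46 and 35.3 CPM with LPS and 16.8, 17.1 and 179 CPM with H2O. Astrocyte markers summed to 62.7, 75.9 and 284 CPM with H2O, and to 45.4, 24.5 and 27 CPM with LPS, where replicate 3 lay between the others. With H2O that sum was nearly all Slc1a3, at 60.2 to 271 CPM, and no other marker of the astrocyte list exceeded 4.87 CPM (Aldoc). With ENV the oligodendrocyte-lineage sum was 82.4 to 171 CPM, against 305 to 339 CPM with buffer. The part of these other cells in the results was not tested. Nothing in the labels says that replicates came from separate cultures or litters, so p-values reflect only how far these libraries vary, and that variation may be technical.

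The microglial tables listed 88 of the 92 genes. Of these, 16 had no count in any of the 12 microglial libraries, among them the natural killer receptor genes Klrd1, Klrc1 and Klre1, the IgE receptor chain gene Fcer1a and Siglech, and 44 averaged at least 1 CPM in some group. The ENV and LPS tables of the astrocyte cultures listed 60 and 57 genes, of which 30 and 29 averaged at least 1 CPM in a group. Only 50 symbols stood in all of the tables. In buffer, 31 of 38 testable genes were higher in microglia than in astrocyte cultures and 6 were lower, where 70.0% of all 12984 genes tested differed, 33.6% higher and 36.4% lower. The median of these 38 was a log2 difference of 5.15, against -0.01 for all genes tested.

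The inhibitory receptor gene Lilrb4 illustrates that split. It had 318, 299 and 233 CPM in buffer-treated microglia, against 4.93, 0.920, 3.64 and 5.92 CPM in buffer-treated astrocyte cultures, and the ranges were far apart. Lilrb1 averaged 17.4 CPM in microglia and 0.0172 CPM in astrocyte cultures, and the common signalling chain gene Fcer1g averaged 1948 CPM in microglia and 33.9 CPM in astrocyte cultures. The 6 genes lower in microglia were Clec16a, Clec11a, Clec3b, Clec14a, Clec2d and Clec2dl1, none of them a myeloid receptor by its known role. Clec2d, which in mouse and human is a ligand of a natural killer receptor, averaged 7.10 CPM in astrocyte cultures and had 0 counts in every buffer-treated microglial library. Cell type, culture and gene table go together in this comparison and cannot be told apart.

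In microglia ENV changed most of the receptor genes that could be tested. Of 44 genes with enough counts, 30 passed the test against buffer (edgeR quasi-likelihood, adjusted p below 0.05), 19 of them higher and 11 lower. Over all 12844 genes tested, 30.9% passed in either direction, 16.2% higher and 14.7% lower. The median of the 44 log2 changes was 0.23, against -0.03 for all genes. The other 44 listed genes had too few counts to test, so these shares describe the expressed genes only.

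The roles divided unevenly by direction. Of 15 activating genes tested, 9 rose, 3 fell and 3 did not pass. Of 19 inhibitory genes tested, 3 rose, 5 fell and 11 did not pass. Among 6 adhesion, uptake or other genes 5 rose and 1 fell, and among 4 unclassified genes 2 rose and 2 fell. The median log2 change was 1.35 for the activating and -0.09 for the inhibitory genes. The difference between roles was not tested, and the activating list counts Fcgr2a as the 2 numbered copies in the table.

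With LPS fewer of the receptor genes passed. Of 45 tested, 9 rose and 9 fell against H2O, where 29.8% of 12229 genes passed in either direction, 16% higher and 13.8% lower, and the median change was 0.03. Of 16 activating genes 6 rose and 3 fell, and of 19 inhibitory genes 1 rose and 4 fell. With the replicate number as a block 23 receptor genes passed, and 3707 genes over all. Of 16 activating genes 8 were then higher and 3 lower, and of 19 inhibitory genes 1 was higher and 7 lower. Without the libraries numbered 3 of both groups, 23 receptor genes and 4262 genes over all passed, and 17 of the 18 were among the 23. The plot of changes by role sets both stimuli side by side.

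**Figure D1:**
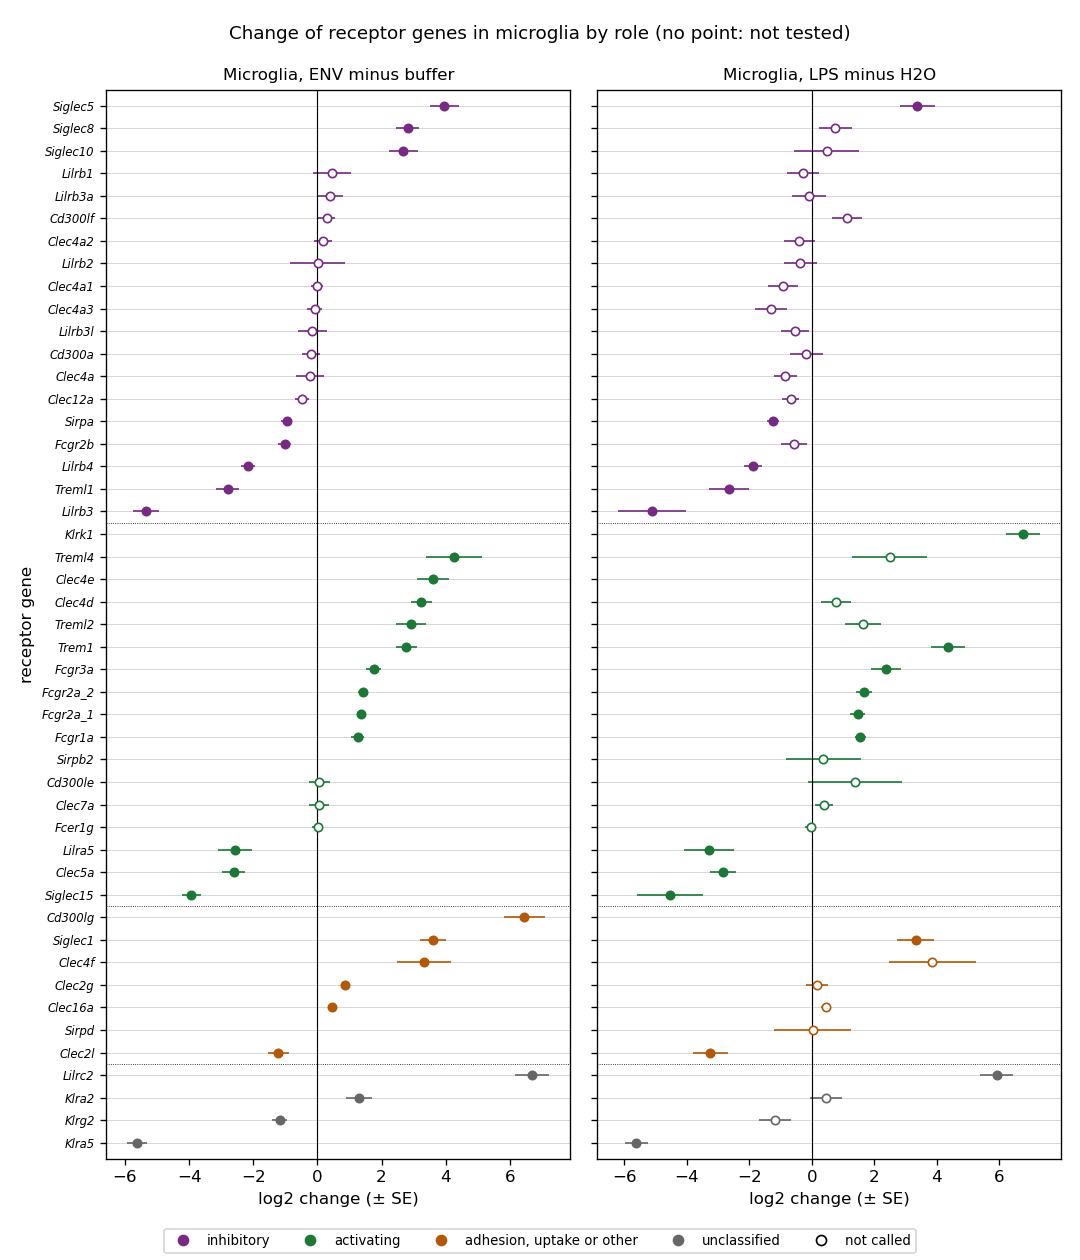
Log2 change (± SE) of each tested receptor gene in microglia with ENV against buffer (left) and with LPS against H2O (right), n = 3 libraries per group, ordered by role and by the ENV change. Filled points passed the test at an adjusted p below 0.05: 19 higher and 11 lower with ENV, 9 higher and 9 lower with LPS.

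The genes of the activating Fc gamma receptors for IgG rose with both stimuli, and that of the inhibitory form fell with ENV. Fcgr3a, a low-affinity activating receptor, had 1076, 718 and 976 CPM with ENV, against 280, 272 and 387 CPM with buffer. It had 1698, 1785 and 544 CPM with LPS, against 375, 239 and 340 CPM with H2O. Neither pair of groups overlapped, and LPS replicate 3 was well below the other LPS libraries. It rose by log2 changes of 1.76 ± 0.236 with ENV (SE, adjusted p = 0.00226) and 2.39 ± 0.484 with LPS (adjusted p = 0.0160). LPS replicate 2 and each H2O replicate decided the LPS call: leaving out any of them ended it, and the adjusted p reached 0.0711.

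Fcgr1a, the high-affinity IgG receptor, had 545, 443 and 473 CPM with ENV, against 227, 192 and 282 CPM with buffer. It reached 741, 651 and 720 CPM with LPS, against 318, 306 and 262 CPM with H2O. All treated libraries stood above all vehicle libraries, with log2 changes of 1.26 ± 0.198 (adjusted p = 0.00420) and 1.56 ± 0.168 (adjusted p = 0.00257). Fcgr2a appeared as 2 numbered copies. Fcgr2a_2 averaged 2260 CPM with ENV and 970 CPM with buffer, and 3159 CPM with LPS and 1236 CPM with H2O. The copies kept a nearly fixed count ratio of 1.70 to 2.06 over the 12 libraries, so how reads were shared between them could not be separated, and each copy's change passed (log2 1.35 and 1.42 with ENV, 1.47 and 1.67 with LPS).

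Fcgr2b, the inhibitory Fc gamma receptor, had 50.5, 82.5 and 61.0 CPM with ENV, against 151, 124 and 173 CPM with buffer. These groups did not overlap, and the log2 change was -1.02 ± 0.208 (adjusted p = 0.0113). A joint fit of the 4 microglial groups ended that call (adjusted p = 0.0632). With LPS it had 82.9, 45.3 and 68.9 CPM, against 82.5, 83.8 and 204 CPM with H2O, and the groups overlapped (log2 change -0.58, adjusted p = 0.330). Fcer1g, the chain through which activating Fc receptors signal, averaged 1713 CPM with ENV and 1948 CPM with buffer, and 1602 CPM with LPS and 2029 CPM with H2O. Its log2 changes were 0.01 and -0.04, with 95% intervals of -0.40 to 0.42 and -0.47 to 0.40.

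Sialic acid-binding lectins held some of the largest rises. Siglec5, an inhibitory receptor in human, had 788, 553 and 811 CPM with ENV, against 49.1, 26.4 and 82.1 CPM with buffer. LPS-treated microglia had 1048, 871 and 837 CPM, against 131, 155 and 38.4 CPM with H2O. Treated and vehicle libraries were far apart in both sets, although H2O replicate 3 was low. The log2 changes were 3.96 ± 0.456 (adjusted p = 0.00128) and 3.38 ± 0.550 (adjusted p = 0.00850).

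Siglec1 (sialoadhesin), which has no inhibitory motif and binds sialylated particles, had 1502, 704 and 918 CPM with ENV, against 138, 98.8 and 64.6 CPM with buffer. It had 2215, 1702 and 617 CPM with LPS, against 291, 121 and 148 CPM with H2O. No treated library reached down to the vehicle range. Its log2 changes were 3.59 ± 0.409 (adjusted p = 0.00122) and 3.33 ± 0.602 (adjusted p = 0.0116), and the LPS call was lost without H2O replicate 2 (adjusted p = 0.0548).

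Siglec8 and Siglec10, inhibitory receptors in human, passed with ENV and not with LPS. Siglec8 had 204, 199 and 112 CPM with ENV, against 38.4, 29.2 and 17.3 CPM with buffer (log2 change 2.81, adjusted p = 0.00183). In LPS-treated microglia it had 42.6, 26.9 and 32.4 CPM, against 46.5, 14.2 and 13.8 CPM with H2O, and these groups overlapped. Siglec10 averaged 13.1 CPM with ENV and 2.34 CPM with buffer (log2 change 2.67, adjusted p = 0.00558), and 4.92 CPM with LPS and 4.35 CPM with H2O. In the fit of all 4 groups the Siglec10 call was lost (adjusted p = 0.0603).

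Siglec15, which couples to the adaptor Tyrobp and is best known from osteoclasts, moved the other way. It had 0.614, 1.01 and 0.726 CPM with ENV, against 16.6, 14.9 and 9.94 CPM with buffer. With LPS it had 0.962, 0.601 and 0 CPM, against 16.5, 17.1 and 12 CPM with H2O. Every treated library was below every vehicle library by a wide margin. These were log2 changes of -3.93 ± 0.289 (adjusted p = 0.000290) and -4.54 ± 1.06 (adjusted p = 0.0238), and LPS replicate 2 and H2O replicates 1 and 2 each decided the LPS call, which failed when any of them was left out (adjusted p up to 0.0917).

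Leukocyte immunoglobulin-like receptors were split. Lilrb3, an inhibitory receptor, had 2.2, 2.32 and 1.06 CPM with ENV, against 105, 103 and 54.9 CPM with buffer. It had 5.95, 4.93 and 0.394 CPM with LPS, against 190, 239 and 47.9 CPM with H2O. The groups were far apart in both sets, and replicate 3 was lowest in all 4 groups. The log2 changes were -5.35 ± 0.396 (adjusted p = 0.000290) and -5.10 ± 1.09 (adjusted p = 0.0187). Leaving out replicate 1 or 2 of the LPS or H2O group ended the LPS call (adjusted p up to 0.0746).

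Lilrb4, an inhibitory receptor of myeloid cells, had 56.3, 68.3 and 41.2 CPM with ENV, against 318, 299 and 233 CPM with buffer. LPS-treated microglia had 68.2, 42.0 and 45.8 CPM, against 279, 256 and 179 CPM with H2O. The groups were separate in both sets, with log2 changes of -2.15 ± 0.214 (adjusted p = 0.000695) and -1.88 ± 0.291 (adjusted p = 0.00743). The activating gene Lilra5 also fell, to a mean of 0.654 CPM with ENV, against 4.50 CPM with buffer, and to 0.713 CPM with LPS, against 8.64 CPM with H2O. Its LPS call was lost when replicate 1 or 2 of either group was left out (adjusted p up to 0.0930).

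The other Lilrb genes, Lilrb1, Lilrb2, Lilrb3a and Lilrb3l, did not pass with either stimulus. Lilrb3a had 133, 73.2 and 211 CPM with ENV, against 116, 89.0 and 154 CPM with buffer, and Lilrb3l averaged 57.3 CPM with ENV and 74.4 CPM with buffer, with overlapping groups for both. How alike the sequences of the Lilrb genes are was not measured. Reads can be split between related genes, so the counts of 6 Lilrb genes, Lilrb4 among them, were also summed. That sum was 216 to 327 CPM with ENV and 559 to 644 CPM with buffer (log2 change -0.86, adjusted p = 0.0156), and 152 to 488 CPM with LPS and 546 to 926 CPM with H2O (log2 change -1.0, adjusted p = 0.15). The log2 changes of Lilrb3 and Lilrb4 were thus larger than that of the family sum, which passed with ENV and not with LPS.

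Lilrc2, whose role in rat is not stated here, had the largest log2 rise with ENV. It had 32.0, 17.6 and 53.8 CPM with ENV, against 0.339, 0.280 and 0.505 CPM with buffer. In LPS-treated microglia it had 38.9, 14.7 and 33.1 CPM, against 0.757, 0.387 and 0.632 CPM with H2O. Every treated library was far above every vehicle library, all of which were under 1 CPM. Its log2 changes were 6.70 ± 0.536 (adjusted p = 0.000359) and 5.92 ± 0.521 (adjusted p = 0.00161).

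Killer cell lectin-like receptor genes moved in both directions. Klra5, a Ly49 family gene, had 0.289, 0.392 and 0.297 CPM with ENV, against 20.9, 22.7 and 12.7 CPM with buffer. It had 0.177, 0.261 and 0.105 CPM with LPS, against 11, 10.3 and 12.1 CPM with H2O. The treated libraries lay close to the limit of 3 counts, far below their vehicles. The log2 changes were nearly the same, -5.62 ± 0.307 (adjusted p = 0.000140) and -5.62 ± 0.366 (adjusted p = 0.000719).

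Klra2, another Ly49 gene, had 56.4, 31.9 and 26.2 CPM with ENV, against 20.1, 10.9 and 22.6 CPM with buffer (log2 change 1.3, adjusted p = 0.0456). With LPS it had 16.9, 33.2 and 9.06 CPM, against 14.7, 26.6 and 11.6 CPM with H2O, which overlapped. The sum of the 5 Klra genes did not pass with ENV (log2 change 0.28, adjusted p = 0.508) or with LPS (log2 change -0.24, adjusted p = 0.713), and reads shared among Ly49 genes could not be separated.

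Klrk1 encodes NKG2D, an activating receptor best known from natural killer and T cells. It had 11.8, 7.02 and 5.70 CPM with LPS, against 0.101, 0.121 and 0.0468 CPM with H2O, so it was near the limit of 3 counts without LPS. The log2 change was 6.78 ± 0.543 (adjusted p = 0.00126). With ENV the libraries ranged widely, at 4.40, 0.163 and 0.989 CPM, against 0.0377, 0 and 0.101 CPM with buffer, and the gene had too few counts for the edgeR test. DESeq2, which had no such filter, gave a log2 change of 5.57 with ENV (adjusted p = 0.000134). Of the other natural killer cell genes, Klrd1, Klrc1 and Nkg7 were at 0 counts in every microglial library. The kinase gene Lck, also on the lymphocyte list, was 8.90 to 10.1 CPM with LPS and 3.84 to 5.07 CPM with H2O.

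**Figure D2:**
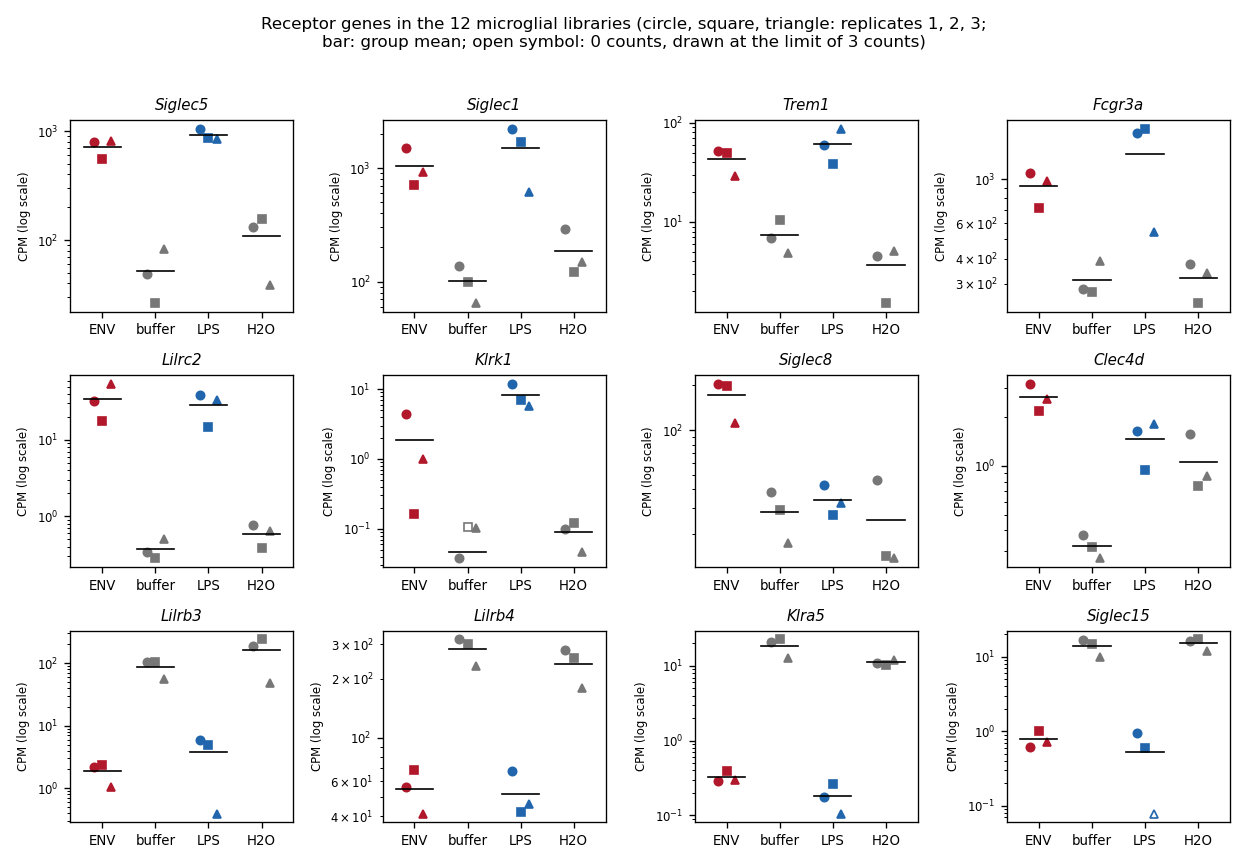
CPM (log axis) of 12 receptor genes in each microglial library, by group. The first row and Lilrc2 are higher in every treated library than in its vehicle libraries, the last row is lower, and Siglec8 and Clec4d separate fully with ENV only.

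Promoter sequence is shown for 5 of the genes that passed in microglia, chosen because their windows hold a match to one of the motifs searched. Each line below gives the 250 bases before the annotated start, from RefSeq on the GRCr8 build, 5′ to 3′ on the strand of the gene; this build is later than the one named for the counts. Capitals mark matches to the interferon-response element core (GAAA, any pair of bases, GAAA), the PU.1 core GAGGAAGT or the AP-1 motif TGANTCA on either strand. PU.1 is the factor that defines the myeloid lineage.
Fcgr3a, chr13:85782386-85782635, plus strand: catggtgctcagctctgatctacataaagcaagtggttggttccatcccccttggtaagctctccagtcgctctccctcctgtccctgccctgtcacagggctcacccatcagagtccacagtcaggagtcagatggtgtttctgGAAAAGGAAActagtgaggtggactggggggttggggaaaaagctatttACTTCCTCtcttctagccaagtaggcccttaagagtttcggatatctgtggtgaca
Clec2g, chr4:164303643-164303892, plus strand: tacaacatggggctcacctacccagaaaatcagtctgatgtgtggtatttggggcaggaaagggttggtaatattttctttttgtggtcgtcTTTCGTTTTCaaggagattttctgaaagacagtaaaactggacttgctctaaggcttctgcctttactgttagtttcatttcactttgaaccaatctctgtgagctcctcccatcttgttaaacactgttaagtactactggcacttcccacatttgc
Klrk1, chr4:164778383-164778632, minus strand: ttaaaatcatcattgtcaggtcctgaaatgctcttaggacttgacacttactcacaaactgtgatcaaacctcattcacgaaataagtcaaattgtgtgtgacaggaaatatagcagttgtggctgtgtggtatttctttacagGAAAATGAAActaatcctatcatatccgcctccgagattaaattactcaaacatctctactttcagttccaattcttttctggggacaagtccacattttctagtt
Klra5, chr4:166554851-166555100, minus strand: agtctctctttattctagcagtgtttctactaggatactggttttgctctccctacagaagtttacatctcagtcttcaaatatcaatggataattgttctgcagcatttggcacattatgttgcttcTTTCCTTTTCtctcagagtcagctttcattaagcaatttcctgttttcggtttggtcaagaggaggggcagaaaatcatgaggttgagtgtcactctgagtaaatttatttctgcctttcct
Lilrc2, chr1:74192585-74192834, minus strand: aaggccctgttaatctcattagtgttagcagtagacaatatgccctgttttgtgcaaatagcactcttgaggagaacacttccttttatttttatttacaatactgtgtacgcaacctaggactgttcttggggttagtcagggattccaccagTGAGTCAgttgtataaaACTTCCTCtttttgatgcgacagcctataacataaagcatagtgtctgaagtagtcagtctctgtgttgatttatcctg
The first 4 lines hold the interferon-response core, which stood in the promoter windows of 6 of the 66 receptor genes with an entry in the RefSeq promoter table (9.09%) and in 3.41% of all 33469 windows. Those 6 were Clec2g, Clec4d, Clec4m, Fcgr3a, Klra5 and Klrk1: Clec2g, Clec4d and Fcgr3a rose with ENV, Klrk1 rose with LPS, Klra5 fell with both, and Clec4m had no count in microglia. The PU.1 core was in 7 of 66 (10.6%) and in 2.04% of all windows, Fcgr3a and Lilrc2 among them. The AP-1 motif was in 6 of 66 (9.09%) and in 6.34% of all windows, the GAS motif TTCNNNGAA in 9.09% and 7.67%, and the NF-kB motif (GGGA, any base, TTTCC) in 0 of 66 and 0.314%. A match describes these letters and not binding.

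Trem1, which amplifies inflammatory signals through Tyrobp, rose with both stimuli. It had 51.8, 49.3 and 28.9 CPM with ENV, against 6.86, 10.4 and 4.88 CPM with buffer. LPS-treated microglia had 58.9, 38.5 and 86.6 CPM, against 4.54, 1.53 and 5.06 CPM with H2O. The groups were clearly apart, with log2 changes of 2.77 ± 0.335 (adjusted p = 0.00152) and 4.36 ± 0.554 (adjusted p = 0.00459).

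The Trem-like genes were called in both directions. Treml2 averaged 4.57 CPM with ENV and 0.699 CPM with buffer, and Treml4 averaged 1.24 CPM with ENV and 0.0718 CPM with buffer, and both passed (log2 changes 2.92 and 4.26). With LPS both were uncalled, at 5.56 CPM with LPS and 2.2 CPM with H2O for Treml2 and 1.33 CPM with LPS and 0.295 CPM with H2O for Treml4. Treml2 did pass with LPS when the replicate number was a block (log2 change 1.84, adjusted p = 0.0466), in DESeq2 (adjusted p = 0.0222) and without the libraries numbered 3 (adjusted p = 0.0231). Treml1, known from platelets, was placed on the inhibitory list, and that place is uncertain. It fell to 0.313 CPM with ENV, against 2.51 CPM with buffer, and to 0.248 CPM with LPS, against 1.96 CPM with H2O (adjusted p = 0.00190 and 0.0267).

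The activating C-type lectins that sense microbial glycolipids had few counts. Clec4d had 3.18, 2.19 and 2.57 CPM with ENV, against 0.377, 0.315 and 0.269 CPM with buffer (log2 change 3.24, adjusted p = 0.000695). In LPS-treated microglia it had 1.65, 0.940 and 1.81 CPM, against 1.56, 0.751 and 0.866 CPM with H2O, which overlapped (adjusted p = 0.254). Its H2O level was thus above its buffer level. Clec4e (Mincle) had 0.397, 0.685 and 0.561 CPM with ENV, against 0.0377, 0.0350 and 0.0674 CPM with buffer (adjusted p = 0.00244), where the buffer values were under the limit of 3 counts. With LPS it had 0.228, 0.366 and 0.893 CPM, against 0.0505, 0.0969 and 0.117 CPM with H2O, too few counts for the edgeR test, and DESeq2 called it higher (log2 change 2.80, adjusted p = 0.0165).

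Clec5a, an activating lectin that signals through Tyrobp, fell. It had 4.01, 5.78 and 2.87 CPM with ENV, against 33.6, 38.6 and 17.3 CPM with buffer, and 2.46, 1.46 and 3.73 CPM with LPS, against 30.0, 20.8 and 17.5 CPM with H2O. No treated library came near a vehicle library. The log2 changes were -2.61 ± 0.362 (adjusted p = 0.00261) and -2.85 ± 0.414 (adjusted p = 0.00646). Clec7a (Dectin-1), a receptor for fungal glucan, averaged 14.8 CPM with ENV and 16.5 CPM with buffer, and 7.41 CPM with LPS and 7.01 CPM with H2O, and it passed with neither (log2 changes 0.05 and 0.40).

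Sirpa, the inhibitory receptor for CD47, had 483, 677 and 523 CPM with ENV, against 1380, 1337 and 1033 CPM with buffer. It had 539, 626 and 397 CPM with LPS, against 1494, 1466 and 1608 CPM with H2O. The treated libraries lay well below their vehicles, with log2 changes of -0.96 ± 0.166 (adjusted p = 0.00613) and -1.24 ± 0.201 (adjusted p = 0.00821). The gene for its ligand, Cd47, rose with LPS, to 536 CPM, against 324 CPM with H2O (log2 change 1.03, adjusted p = 0.0153). With ENV Cd47 averaged 303 CPM, against 263 CPM with buffer, and did not pass (adjusted p = 0.0744).

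Several inhibitory lectin genes of the Clec4a cluster, and Clec12a, passed in some fits only. Clec4a3 had 258, 245 and 70.4 CPM with LPS, against 662, 655 and 418 CPM with H2O, and Clec4a1 had 241, 268 and 77.9 CPM with LPS, against 459, 584 and 319 CPM with H2O. These groups did not overlap, yet neither passed (log2 changes -1.29 and -0.91, adjusted p = 0.102 and 0.201). With the replicate number as a block both passed (log2 changes -1.47 and -1.05, adjusted p = 0.0257 and 0.0408), as did Clec4a (log2 change -0.94, adjusted p = 0.0281). Without the libraries numbered 3, Clec4a1 and Clec4a3 passed as well, and Clec4a3 also passed in DESeq2 and in the joint fit. With ENV, Clec12a averaged 84.8 CPM, against 136 CPM with buffer, and did not pass (adjusted p = 0.128) but did with the block (log2 change -0.46, adjusted p = 0.0271). In mouse, the counterparts of Clec4a1 and Clec4a3 are thought to lack the inhibitory motif, and their place on the inhibitory list is therefore uncertain.

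Most genes of the Cd300 receptors, which bind lipids, did not pass. Cd300a averaged 83.5 CPM with ENV and 111 CPM with buffer, and 93.7 CPM with LPS and 131 CPM with H2O, where LPS replicate 3 at 28.3 CPM was far below the others. Cd300lf averaged 72.7 CPM with ENV and 68.6 CPM with buffer, and 99.9 CPM with LPS and 57.0 CPM with H2O; without the libraries numbered 3 it passed with LPS (log2 change 1.37, adjusted p = 0.0152). Cd300lg, an adhesion receptor known from endothelium, had 189 counts over the 3 ENV libraries and 2 over the 3 buffer libraries. That is a ratio of 90.3 with a 95% counting interval of 24.7 to 751, which covers counting error only. Endothelial markers in the same libraries summed to 82.6 to 177 CPM with ENV and 32.5 to 56.7 CPM with buffer. Pecam1 and Cdh5 were higher by 2.2 and 2.0 on the log2 scale (adjusted p = 0.00763 and 0.00608). Of 5 endothelial markers tested, these 2 passed higher and 1 passed lower, with a median log2 change of -0.31. Egfl7 was 0.587 to 0.686 CPM with ENV and 1.58 to 4.08 CPM with buffer, and Kdr and Emcn were at most 0.0361 CPM. The part of endothelial cells in the Cd300lg counts was not tested.

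The remaining genes that passed with ENV were smaller or rarer. Clec2g had 291, 265 and 283 CPM with ENV, against 193, 166 and 170 CPM with buffer (log2 change 0.87, adjusted p = 0.00294). Clec16a had 52.2, 50.6 and 49.5 CPM with ENV, against 45.6, 47.1 and 34.2 CPM with buffer (log2 change 0.47, adjusted p = 0.0396). Clec4f, a Kupffer cell lectin in rodents, averaged 1.15 CPM with ENV and 0.125 CPM with buffer, Klrg2 averaged 2.33 CPM with ENV and 6.06 CPM with buffer, and Clec2l averaged 5.55 CPM with ENV and 14.7 CPM with buffer. Clec2l also fell with LPS, to 0.893 CPM, against 10.6 CPM with H2O (log2 change -3.24, adjusted p = 0.00947).

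The ENV and LPS sets had separate vehicles, so their responses could be tested against each other. Of the 19 genes higher with ENV, 8 were also higher with LPS (42.1% of the ENV list and 88.9% of the LPS list): Fcgr1a, both Fcgr2a copies, Fcgr3a, Lilrc2, Siglec1, Siglec5 and Trem1. Of the 11 lower with ENV, 9 were also lower with LPS (81.8% and 100%): Clec2l, Clec5a, Klra5, Lilra5, Lilrb3, Lilrb4, Siglec15, Sirpa and Treml1. The lists include genes without an edgeR test in the other set: Clec4e had none with LPS, and Klrk1 none with ENV. The same overlap over all genes is not given here, so these shares cannot be set against it. The test of the difference between the responses called 0 of 48 receptor genes and 0 of all 13270 genes with edgeR. At an unadjusted p below 0.05 there were 5 receptor genes and 937 genes. DESeq2 called 1 receptor gene, Clec4d, and 65 genes over all.

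The estimates of that difference were wide. It was 2.50 for Clec4d (95% interval 1.18 to 3.82, adjusted p = 0.538), 2.10 for Siglec8 (0.53 to 3.68, adjusted p = 0.681) and 2.26 for Siglec10 (-0.49 to 5.01, adjusted p = 0.732), each higher with ENV. It was -1.57 for Trem1 (-3.0 to -0.14, adjusted p = 0.693) and -1.32 for Klrk1 (-5.38 to 2.74, adjusted p = 0.910). For Fcgr1a, Siglec5 and Klra5 it was -0.27, 0.62 and 0.02, with intervals of -0.86 to 0.33, -0.99 to 2.23 and -0.67 to 0.72. Genes that passed with one stimulus alone are therefore not shown to respond differently to the other.

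The vehicles themselves bear on this. Between buffer-treated and H2O-treated microglia 0 of 43 receptor genes and 0 of all 12900 genes passed in edgeR. At an unadjusted p below 0.05 there were 11 receptor genes and 1946 genes over all. DESeq2 called 3 receptor genes (Clec7a higher, Fcgr2a_1 and Lilrb3a lower with buffer) and 674 genes over all. Without H2O replicate 3 edgeR called 5 receptor genes, all lower with buffer: Clec2g, Clec4d, Lilrb3, Siglec10 and Treml2. The count over all genes in that fit is not given here. In astrocyte cultures 0 of 30 receptor genes and 0 of 14876 genes passed. There, 0 receptor genes and 125 genes over all had an unadjusted p below 0.05.

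In astrocyte cultures fewer receptor genes could be tested and fewer passed. With ENV 3 of 29 rose and 5 fell, where 17.9% of 14941 genes passed, 9.52% higher and 8.35% lower. With LPS 1 of 29 rose and 2 fell, where 5.34% of 14710 genes passed, 2.64% higher and 2.69% lower. The median log2 change of the tested receptor genes was -0.42 with ENV and -0.53 with LPS, against 0.02 and 0.03 for all genes. Of 12 inhibitory genes 1 rose with ENV, and of 11 inhibitory genes 1 rose with LPS, in both cases Siglec5. None of the 6 activating genes passed with either stimulus. At an unadjusted p below 0.05 there were 10 receptor genes of any role with ENV and 9 with LPS. Over all genes tested there were 4889 with ENV and 3067 with LPS.

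With the replicate number as a block these counts were larger: 14 with ENV (5 higher, 9 lower) and 12 with LPS (4 higher, 8 lower). All 8 and all 3 of the receptor genes called without the block were among them. Over all genes the block also called more, 4348 with ENV and 2611 with LPS, against 2670 and 785 without it. The receptor genes gained with ENV were Fcgr1a and Fcgr2a-ps1, which were higher, and Clec12a, Clec4a3, Clec7a and Siglec15, which were lower. DESeq2 called 14 and 9 receptor genes, and 3832 and 2061 genes over all. Leaving out single libraries gave 3 to 11 receptor genes with ENV: 3 without ENV replicate 1, and 5 without ENV replicate 4 or buffer replicate 3. With LPS it gave 0 or 1 for every library left out except LPS replicate 2, where 2 passed. Counts over all genes in these fits with a library left out are not given here.

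Siglec5 rose in all 4 treated comparisons by edgeR. In astrocyte cultures it had 53.2, 4.81, 25.0 and 38.7 CPM with ENV, against 3.38, 0.566, 1.10 and 1.98 CPM with buffer. With LPS it had 10.2, 4.07, 23.4 and 27.2 CPM, against 2.14, 0.707, 1.55 and 1.95 CPM with H2O. Treated libraries lay above all vehicle libraries in both sets, and replicate 2 was lowest in every group. Its log2 changes were 4.13 ± 0.787 (adjusted p = 0.0101) and 3.39 ± 0.640 (adjusted p = 0.0241).

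Trem1 had too few counts for the edgeR test in astrocyte cultures. It had 2.34, 0.252, 0.910 and 2.19 CPM with ENV, against 0, 0, 0.0391 and 0.0849 CPM with buffer, and 0.463, 0.0380, 0.301 and 1.63 CPM with LPS, against 0, 0, 0.0397 and 0.124 CPM with H2O. DESeq2, which had no such filter, called it higher with ENV (log2 change 5.45, adjusted p = 6.4e-06) and with LPS (log2 change 3.97, adjusted p = 0.0308), where LPS replicate 2 lay within the H2O range.

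The LPS call of Siglec5 was lost in 7 of 15 alternatives: without any 1 H2O replicate, without LPS replicate 3 or 4, and with replicates 1 and 2 alone (adjusted p up to 0.0881). The microglial markers in replicate 2 summed to 212 CPM with ENV and 229 CPM with buffer, the lowest of their groups. In bulk cultures fewer microglia and less RNA per microglial cell cannot be told apart, and the part of residual microglia in the astrocyte values was not tested.

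The Clec2 genes carried most of the other calls. Clec2g had 231, 201, 312 and 268 CPM with ENV, against 96.2, 125, 155 and 147 CPM with buffer, with no overlap (log2 change 0.97 ± 0.182, adjusted p = 0.00959). Clec2dl1 averaged 3.37 CPM with ENV and 1.55 CPM with buffer (adjusted p = 0.0363), whereas Clec2d averaged 3.94 CPM with ENV and 7.10 CPM with buffer (adjusted p = 0.0194). Reads shared among Clec2 genes could not be separated. The sum of the 6 Clec2 genes passed with ENV (log2 change 0.87, adjusted p = 0.0103). Clec2g made up most of that sum, which therefore says little of Clec2d and Clec2dl1. Clec2l had 0.638, 0.0629, 1.07 and 0.958 CPM with ENV, against 8.23, 0.991, 3.99 and 7.05 CPM with buffer, where buffer replicate 2 lay within the ENV range. Its log2 change was -2.85 (adjusted p = 0.0420), and it was lost without replicate 1, 3 or 4 of either group (adjusted p up to 0.104). Clec2d and Clec2g were also lost in the joint fit (adjusted p up to 0.118 and 0.102), and Clec2d without ENV replicate 1 or buffer replicate 3.

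Clec14a, a lectin of endothelium, fell to 0.461, 0.535, 0.618 and 0.787 CPM with ENV, against 4.06, 2.72, 2.93 and 2.46 CPM with buffer (log2 change -2.32, adjusted p = 0.00162). Clec3b, the secreted protein tetranectin, averaged 1.43 CPM with ENV and 3.55 CPM with buffer (adjusted p = 0.0274). Summed fibroblast and mural cell markers were 1633 to 3385 CPM with ENV and 2737 to 10942.5 CPM with buffer, and these ranges overlapped. Of 8 such markers tested, 1 passed lower and 7 did not pass, with log2 changes from -3.33 to 1.41. Summed endothelial markers were 14.4 to 18.0 CPM with ENV and 15.0 to 23.6 CPM with buffer, which overlapped too. The part of these cells in the Clec14a and Clec3b values was not tested. Klrg2 averaged 0.993 CPM with ENV and 1.77 CPM with buffer (adjusted p = 0.0479).

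With LPS, Siglec1 and Clec11a fell in astrocyte cultures, where both were rare. Siglec1 had 0.168, 0.228, 0.536 and 0.489 CPM with LPS, against 1.40, 1.01, 1.31 and 2.44 CPM with H2O, with no overlap. Its log2 change of -2.05 (adjusted p = 0.0424) was lost in 11 of 15 alternatives, with every single library left out among them (adjusted p up to 0.108). Clec11a, a secreted growth factor, averaged 0.420 CPM with LPS and 1.11 CPM with H2O (adjusted p = 0.0495).

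Other myeloid receptor genes in astrocyte cultures varied widely between replicates. Clec7a had 0.758, 0.685, 2.88 and 5.38 CPM with LPS, against 4.52, 4.47, 10.8 and 20.6 CPM with H2O. Each LPS library was below the H2O library of its number, but the groups overlapped and the change did not pass (log2 -2.0, adjusted p = 0.192); with the block it did (log2 -2.19, adjusted p = 0.00376). The pseudogene-named Fcgr2a-ps1, which stands in the astrocyte tables where the microglial table has the 2 Fcgr2a copies, had 70.7, 4.56, 26.8 and 33 CPM with ENV, against 12.7, 1.63, 6.30 and 13.4 CPM with buffer. It did not pass (log2 2.02, adjusted p = 0.126) but did with the block (log2 1.88, adjusted p = 0.00215) and in DESeq2. The summed microglial markers in the same libraries were 732, 212, 673 and 1131 CPM with ENV, against 973, 229, 605 and 899 CPM with buffer. That sum hides opposite moves: of its 13 markers, 1 passed higher and 2 lower with ENV.

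**Figure D3:**
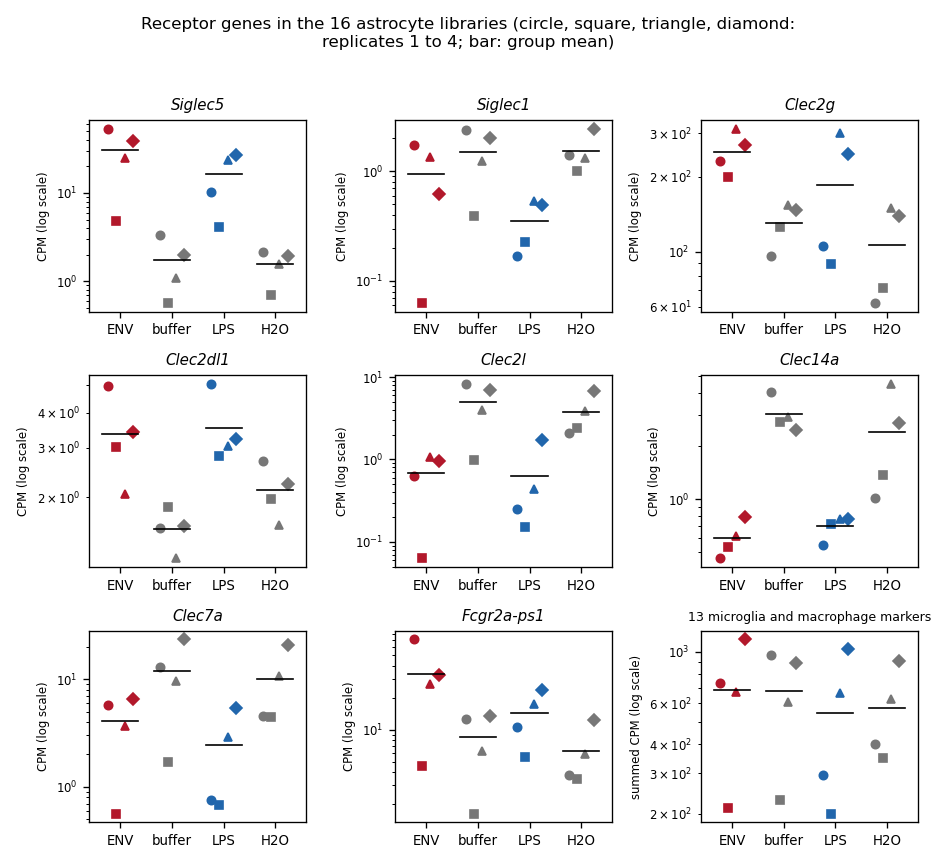
CPM (log axis) of 8 receptor genes and the summed CPM of 13 microglia and macrophage markers in each of the 16 astrocyte libraries. Siglec5 is higher in every treated library than in its vehicle libraries, while the marker sum overlaps between treated and vehicle groups and is lowest in replicate 2.

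The difference between the cell types was tested over symbols in both tables. For ENV 3 of 42 receptor genes passed, where 14.9% of 13378 genes did (6.87% higher and 8.07% lower in microglia). Siglec1 rose in microglia and averaged 0.945 CPM with ENV and 1.51 CPM with buffer in astrocyte cultures, a difference in log2 change of 4.26 (95% interval 2.26 to 6.25, adjusted p = 0.00845). Clec16a differed by 0.63 (0.27 to 0.99, adjusted p = 0.0231) and averaged 73.2 CPM with ENV and 82.9 CPM with buffer in astrocyte cultures. Siglec15 differed by -3.25 (-4.08 to -2.43, adjusted p = 0.000190) and averaged 4.24 CPM with ENV and 6.89 CPM with buffer in astrocyte cultures. DESeq2 called 8 receptor genes and 2846 genes over all. With edgeR, 5 to 6 receptor genes passed without astrocyte replicate 2 of either group or ENV replicate 4. The counts over all genes in those fits are not given here.

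For LPS 4 of 43 passed, where 12.5% of 13284 genes did (5.32% higher, 7.14% lower). The log2 changes of Klrk1, Siglec1 and Lilrc2 were higher in microglia than in astrocyte cultures by 6.13, 5.33 and 5.10 (adjusted p = 0.0159, 0.00103 and 0.0291), with Siglec1 rising in microglia and falling in astrocyte cultures. That of Siglec15 differed by -4.18 (adjusted p = 0.0169). Siglec5 changed by 3.96 in microglia and 4.13 in astrocyte cultures with ENV, and by 3.38 and 3.39 with LPS; its difference did not pass in either set, and the plot of both culture types shows the overlap of its errors.

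**Figure D4:**
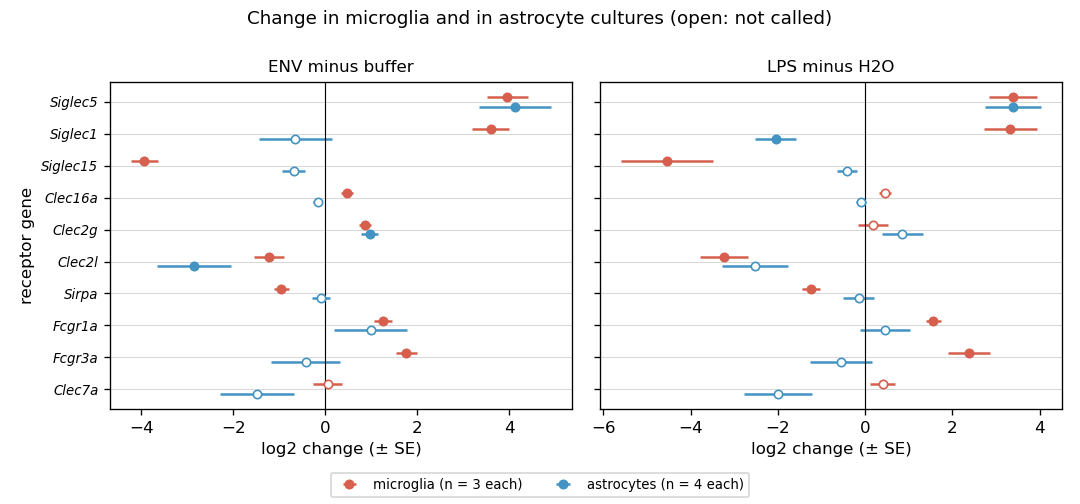
Log2 change (± SE) of 10 receptor genes in microglia (n = 3 libraries per group) and in astrocyte cultures (n = 4) with ENV against buffer and LPS against H2O. Filled points passed the test; Siglec5 lies at nearly the same change in both, while Siglec1 and Siglec15 lie apart.

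Genes downstream of the receptors were counted from lists of adaptors, kinases and phosphatases, and these counts stand beside the shares of all genes, in microglia 16.2% higher and 14.7% lower with ENV and 16% and 13.8% with LPS. In microglia with ENV 8 of 16 activating signalling genes rose and 1 fell, and 2 of 8 inhibitory signalling genes rose and 1 fell. The kinase gene Fgr averaged 228 CPM with ENV and 102 CPM with buffer (log2 change 1.37, adjusted p = 0.0139). The adaptor gene Blnk fell by 1.10 on the log2 scale. Syk averaged 316 CPM with ENV and 258 CPM with buffer (log2 change 0.50, adjusted p = 0.0186), and the adaptor Tyrobp averaged 637 CPM with ENV and 899 CPM with buffer (adjusted p = 0.165).

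Among the inhibitory signalling genes, Ptpn6 rose by 0.74 on the log2 scale and Dok2 fell by 0.79, while the phosphatase Inpp5d did not pass (log2 change 0.13, adjusted p = 0.509). Socs3, a feedback inhibitor of cytokine signalling, averaged 119 CPM with ENV and 3.94 CPM with buffer (log2 change 5.11). With LPS 5 of 16 activating and 3 of 8 inhibitory signalling genes rose and 0 fell, with Fgr at 217 CPM with LPS and 97.4 CPM with H2O and Socs3 at 242 CPM with LPS and 2.54 CPM with H2O. In astrocyte cultures, where 9.52% of all genes were higher with ENV and 2.64% with LPS, 1 of 15 and 1 of 8 rose with ENV (Malt1 and Dok1), and 0 of 14 and 0 of 8 passed with LPS.

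Ligands and related receptors outside the naming rule moved too. Pdpn, the podoplanin ligand of Clec1b, averaged 13.8 CPM with ENV and 2.05 CPM with buffer in microglia (log2 change 2.93, adjusted p = 0.00206), and 89.9 CPM with LPS and 2.04 CPM with H2O (log2 change 5.78, adjusted p = 0.0211). In astrocyte cultures Cd47 rose with both stimuli, by 1.15 with ENV and 0.86 with LPS on the log2 scale, at 307 CPM with ENV and 140 CPM with buffer. Angptl2, a ligand of inhibitory Lilrb receptors in human and mouse, fell there by 2.44 with ENV and 1.99 with LPS on the log2 scale.

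Of 21 related receptors tested in microglia 8 rose and 4 fell with ENV, and of 20 tested with LPS 6 rose and 4 fell, against the same shares of all genes. Trem2, the Tyrobp-coupled lipid receptor, averaged 93.8 CPM with ENV and 754 CPM with buffer (log2 change -2.81, adjusted p = 0.000120), and 85.4 CPM with LPS and 654 CPM with H2O (log2 change -2.60, adjusted p = 0.0359). Trem3 rose, to 12.1 CPM with ENV, against 1.63 CPM with buffer, and the neonatal Fc receptor gene Fcgrt fell, to 64.8 CPM with ENV, against 478 CPM with buffer. Cd72, an inhibitory lectin-like receptor, rose by 2.77 with ENV and 2.73 with LPS on the log2 scale. In astrocyte cultures 3 of 21 rose and 2 fell with ENV, and 2 of 20 rose and 3 fell with LPS, where 2.64% of all genes were higher and 2.69% lower with LPS.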

How the data were processed

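The study measured messenger RNA in 28 libraries of 8 groups, as gene counts. The deposited counts are whole-number reads per gene symbol that the authors left unnormalized, in tables that list different symbols. The submitters' processing notes name HISAT2, StringTie 1.3.3b and the mRatBN7.2 assembly, with no roles. The annotation and the use of strand are not stated in any source used. Groups came from the sample titles and treatments in the labels.

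Each comparison was fitted over all genes with edgeR 4.0.16 in R 4.3.3 (TMM scaling, its expression filter, robust quasi-likelihood F test). P-values were Benjamini-Hochberg adjusted over all genes tested, and a gene passed at an adjusted p below 0.05. Comparisons between cell types used symbols in both tables. Library totals were 23742228 to 42724111 counts. No pair of libraries was identical (chi-square per gene 18.4 to 414). The fits were tested on simulated counts.

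Alternatives were DESeq2 1.42.0, its size factors in edgeR, no filter on low counts, each library left out in turn, the replicate number as a block, a joint fit of the 4 groups of a cell type, summed paralog families and subsets of replicates. Same-numbered libraries deviated together, with correlations of 0.317 to 0.469 and 0.416 to 0.514 in the microglial ENV and LPS sets and 0.260 to 0.637 and 0.529 to 0.634 in the astrocyte sets. Some libraries of different number did so too. In the astrocyte LPS set, LPS replicate 2 correlated with H2O replicate 1 at 0.531 and with H2O replicate 2 at 0.529. LPS replicate 1 correlated with H2O replicate 2 at 0.397, and replicates 3 and 4 crossed at 0.282 and 0.319. Microglial LPS and H2O replicates 1 and 2 crossed at 0.201 and 0.194. Pairing by number is therefore uncertain, and it entered only the fits with a block.

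Named genes were the 8 largest rises and falls among passing genes averaging at least 5 CPM in the higher group, a panel of receptors, and the 3 largest changes per pathway list with Tyrobp, Syk, Ptpn6, Inpp5d, Cd47 and Trem2. Rarer passing genes were named after their values were seen. The members, role lists, pathway lists and marker lists were chosen with earlier results of these data known. Of the 92 symbols, 88 matched a RefSeq symbol, 2 a synonym and 2 neither. Protein motifs were not analysed here, and a gene that the rule names is not reported here.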

Additional observations from a re-analysis of the deposited data

Results flagged for a closer look

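Clec4a3, a lectin of the inhibitory list, had 0.885 CPM in buffer-treated astrocyte replicate 2, against 7.16 to 7.39 CPM in the other 3 buffer libraries. That gap exceeded the critical share of 0.829 of the group's range. It was the single such library among 68 sets of 4 libraries checked, a check that chance trips in about 1 in 20 sets. The summed microglial markers were also lowest in that library, and their part in its value was not tested.

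Several responses differed between the cell types by a direct test of the difference. With ENV the log2 change was higher in microglia than in astrocyte cultures by 4.26 for Siglec1 and by 0.63 for Clec16a, and it differed by -3.25 for Siglec15. With LPS the difference was 6.13 for Klrk1, 5.33 for Siglec1, 5.10 for Lilrc2 and -4.18 for Siglec15. In the LPS and H2O astrocyte libraries Klrk1 was at most 0.335 CPM and Lilrc2 at most 0.190 CPM, so their fitted values there depend on few counts.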

How the results depend on the processing

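For single genes, 1023 values under an alternative kept their direction and their side of the threshold, 51 no longer passed, 24 newly passed and 51 changed sign. Summing paralog families left 18 tested units called with ENV and 10 with LPS in microglia, and 5 with ENV and 1 with LPS in astrocyte cultures. Fewer units were tested in these fits, and some sums did not pass although a member of them had. In microglia the Klra sum did not pass with either stimulus, whereas Klra5 fell with both. Over the whole of each fit 3965 and 3645 units were called in microglia and 2675 and 780 in astrocyte cultures. DESeq2 called 14 genes with ENV and 9 with LPS in astrocyte cultures, 1 for the ENV minus LPS response in microglia, 8 for the ENV response between cell types and 3 between microglial vehicles. With the replicate block, 31 receptor genes with ENV and 23 with LPS passed in microglia, and 14 and 12 in astrocyte cultures. Over all genes in microglia the block called 5036 with ENV and 3707 with LPS. Over all genes in astrocyte cultures, ENV called 2670, against 4348 with the block and 3832 with DESeq2; LPS called 785, against 2611 with the block, 2061 with DESeq2 and 1736 in the joint fit. The astrocyte LPS count was 1 with no filter, 5 in the joint fit, 10 with replicates 1 and 2 alone and 3 with replicates 3 and 4 alone. Over all genes these fits called 721, 1736, 2970 and 892. Leaving out each library gave 26 to 30 calls for ENV and 12 to 21 for LPS in microglia, 3 to 11 for ENV and 0 to 2 for LPS in astrocyte cultures, 0 to 5 between microglial vehicles, 3 to 6 for either response between cell types and 35 to 37 for buffer. The cause of these shifts was not tested. Counts over all genes with single libraries left out are not given here. Changes of sign without leaving out a single library were: Clec4a1 in microglia with ENV (0.00694 with DESeq2 size factors, 0.0117 with DESeq2), Cd300a in microglia with LPS (0.26 without replicates 3), Clec5a in astrocyte cultures with ENV (-0.0669 with the block), and in astrocyte cultures with LPS Fcgr2b (-0.68 with replicates 1 and 2) and Fcer1g, Sirpa and Cd300lf (0.13, 0.14 and 0.12 with replicates 3 and 4). With single libraries left out, log2 changes in microglia with ENV spanned -0.46 to 0.0744 for Cd300a, -0.17 to 0.24 for Cd300le, -0.19 to 0.13 for Clec4a1, -0.10 to 0.39 for Clec4a2, -0.30 to 0.13 for Clec4a3, -0.25 to 0.38 for Clec7a and -0.11 to 0.19 for Fcer1g. With LPS they spanned -0.52 to 0.26 for Cd300a, -0.56 to 3.49 for Cd300le, -0.13 to 0.0593 for Fcer1g and -0.0243 to 0.999 for Siglec10. In astrocyte cultures with ENV they spanned -0.79 to 0.20 for Cd300a, -1.05 to 0.12 for Cd300lf, -0.80 to 0.81 for Clec5a, -0.10 to 0.59 for Fcer1g and -0.26 to 0.0346 for Sirpa. With LPS they spanned -0.82 to 0.0426 for Cd300a, -1.43 to 0.14 for Cd300lf, -0.63 to 0.27 for Fcer1g, -0.0219 to 0.878 for Fcgr1a, -0.29 to 0.63 for Fcgr2b and -0.42 to 0.0481 for Sirpa. In microglia with ENV, Clec2l was lost without any 1 ENV library and in the joint fit (adjusted p up to 0.102), and Klrg2 in the joint fit (adjusted p = 0.0636). Genes near 3 counts a library, such as Klrk1 with buffer, limit what these depths can show.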
